A study of Arabidopsis thaliana with 12 samples.

Results

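Leaves of Arabidopsis thaliana that spent 1 h in nearly saturated air (95% relative humidity, "high") were compared with leaves kept at 55 to 60% ("moderate"), gene by gene and then by gene family. The comparison used 8 of the 12 libraries of the series, 4 for each humidity. Of 32833 genes in the table, 17368 had a value of at least 1 TPM (a length-scaled share of all transcripts) in at least 4 of the 12 libraries and were tested. Families of cell wall, touch and abscisic acid (ABA) genes were set apart, and the other functions are described here.

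All plants were of the Col-0 accession, were labelled as 4 weeks old (3.5 to 4 weeks in the protocol), and had grown at 60% relative humidity and 22 °C with 12 h of light. The moderate setting was therefore close to the growth condition. A further group of 4 libraries, from 40 to 45% relative humidity ("low"), entered only the estimate of the spread and is quoted where it adds to a value. Each humidity had its own chamber, so chamber and humidity cannot be told apart, and it is not stated if each replicate was 1 plant or several pooled. P-values then measure only the spread between these samples.

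Leaves lose water vapour through stomatal pores at a rate set by the difference in vapour between leaf and air, and moist air takes most of that demand away. Water balance reaches the genes through ABA, through turgor and through calcium signals, and it is closely tied to growth, to the cuticle that seals the epidermis, and to carbon use. Calcium-loaded calmodulin acts on CAMTA transcription factors, which bind a short CGCG core in promoters. Many genes of light, clock and stress responses instead carry a G-box, which is bound by bHLH and bZIP factors.

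At high humidity 1981 genes rose (11.4% of those tested) and 2604 fell (15.0%). A gene was called only when the limma test passed an adjusted p of 0.05 both with the TPM unscaled (as deposited) and with median-of-ratios scaling, and the larger of both adjusted p-values is printed. With TPM as deposited the median tested gene had a log2 fold change of -0.22, and scaling moved it to -0.02. Changes of at least 2-fold were found in 752 rising (4.33%) and 560 falling genes (3.22%). Printed fold changes use unscaled log2(TPM + 1), which understates the change of low genes. With 4 libraries a side, all high values lay above all moderate ones in 10.9% of tested genes and below them in 34.9%, called or not, so a lack of overlap by itself sets no gene apart. Calls that were lower made up 75.0% as deposited, 44.8% after scaling and 56.8% under both.

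Expression profiles were close within a humidity, with correlations of 0.968 to 0.985 over genes, and between 0.904 and 0.938 across high and moderate humidity. The share of photosystem, antenna and Rubisco genes was 22.2% ± 0.049 (SD, n = 4) of the moderate and 25.7% ± 0.83 of the high libraries, so each total held less of other transcripts. At low humidity the share was 27.6% ± 2.41. With photosynthetic and plastid-encoded genes left out before rescaling, 2249 genes rose and 2588 fell. Leaf identity was clear, with RBCS1A at no less than 23693 TPM in any library, while the root markers PYK10, CASP1 and MYB66 stayed at or below 0.51 TPM. Of 4 guard cell markers, AT1G22690 rose and FMA and OZS1 fell, and the summed level of the list lay at 176 to 280 TPM at moderate and 254 to 323 TPM at high humidity. The sums of 3 epidermis markers lay at 221 to 285 TPM and then at 186 to 219 TPM, those of 2 phloem markers (SUC2 and APL) at 133 to 151 TPM and then at 172 to 202 TPM, and those of 3 mesophyll markers at 48250 to 49660 TPM and then at 53780 to 61550 TPM. Among the epidermis markers none was called, and KCS10 went from 228 to 172 TPM on average (adjusted p = 0.27). Of the phloem and mesophyll markers SUC2 and CAB1 rose, while APL, RBCS1A and CA1 were not called. Single genes thus carried much of these sums, and the guard cell sum followed AT1G22690. The part of these differences between sums in the results below was not tested. In leaf pieces, fewer cells of a type and less RNA per cell cannot be told apart.

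Promoters of genes from the rising and falling sets were picked to show short elements that differed in frequency between these sets. Each holds its marked element through that choice. Most promoters of either set do not, since CGCG was in 20.2% of those of rising genes and the G-box in 12.7% of those of falling genes. The letters are from the TAIR10.1 assembly of RefSeq and cover the 250 bases before the annotated start, 5′ to 3′ on the gene's strand. The first 5 belong to rising genes. EXO70B2 (chr1:2152542-2152791, minus strand), EXO70B1 (chr5:23623544-23623793, minus) and SEC15B (chr4:1037864-1038113, plus) encode subunits of the exocyst, which tethers secretory vesicles. ZAT7 (chr3:16926884-16927133, minus) is a zinc finger repressor and MEKK1 (chr4:5407321-5407570, minus) a MAP kinase kinase kinase. Capitals mark CGCG in these.
EXO70B2: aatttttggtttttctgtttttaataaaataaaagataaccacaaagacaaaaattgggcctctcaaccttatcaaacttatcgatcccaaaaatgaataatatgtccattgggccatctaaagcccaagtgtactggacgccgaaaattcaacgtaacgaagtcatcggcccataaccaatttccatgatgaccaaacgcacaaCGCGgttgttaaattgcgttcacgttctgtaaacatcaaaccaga
EXO70B1: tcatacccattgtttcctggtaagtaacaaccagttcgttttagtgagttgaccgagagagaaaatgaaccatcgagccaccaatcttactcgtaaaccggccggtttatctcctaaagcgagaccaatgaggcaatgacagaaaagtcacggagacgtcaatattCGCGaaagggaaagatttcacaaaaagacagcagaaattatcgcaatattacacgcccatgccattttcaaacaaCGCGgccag
SEC15B: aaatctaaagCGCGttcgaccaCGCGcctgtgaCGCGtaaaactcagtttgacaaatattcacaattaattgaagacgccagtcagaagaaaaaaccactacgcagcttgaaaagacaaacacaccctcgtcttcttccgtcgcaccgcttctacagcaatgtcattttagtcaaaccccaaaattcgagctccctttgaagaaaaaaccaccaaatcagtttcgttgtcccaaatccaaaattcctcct
ZAT7: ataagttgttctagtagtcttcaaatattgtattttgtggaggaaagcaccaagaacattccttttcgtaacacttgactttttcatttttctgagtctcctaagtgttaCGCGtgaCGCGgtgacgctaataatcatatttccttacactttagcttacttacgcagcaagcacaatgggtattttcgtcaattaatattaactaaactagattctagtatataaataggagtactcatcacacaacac
MEKK1: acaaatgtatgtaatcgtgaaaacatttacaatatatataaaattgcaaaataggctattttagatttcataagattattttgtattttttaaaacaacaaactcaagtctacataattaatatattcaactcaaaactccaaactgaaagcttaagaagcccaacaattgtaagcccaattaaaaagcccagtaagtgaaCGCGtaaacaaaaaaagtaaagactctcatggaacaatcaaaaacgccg
The other 3 belong to falling genes. DIP2 (chr5:763481-763730, minus) is annotated as an E3 ubiquitin ligase. PUB19 (chr1:22198016-22198265, plus) is a U-box ubiquitin ligase, and PHYB (chr2:8139506-8139755, plus) encodes the red light photoreceptor phytochrome B. Capitals mark the G-box CACGTG in these, and the PHYB promoter also holds 1 CGCG, left in lower case.
DIP2: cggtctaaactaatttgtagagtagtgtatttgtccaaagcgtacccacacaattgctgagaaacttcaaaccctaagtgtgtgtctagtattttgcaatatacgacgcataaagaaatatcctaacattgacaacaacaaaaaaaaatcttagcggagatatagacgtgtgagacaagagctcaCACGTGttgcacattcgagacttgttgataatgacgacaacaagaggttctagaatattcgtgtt
PUB19: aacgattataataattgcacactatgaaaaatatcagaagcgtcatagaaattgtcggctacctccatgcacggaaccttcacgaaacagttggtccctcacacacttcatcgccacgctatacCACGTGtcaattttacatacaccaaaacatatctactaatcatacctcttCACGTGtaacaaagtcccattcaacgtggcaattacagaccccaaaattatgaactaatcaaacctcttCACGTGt
PHYB: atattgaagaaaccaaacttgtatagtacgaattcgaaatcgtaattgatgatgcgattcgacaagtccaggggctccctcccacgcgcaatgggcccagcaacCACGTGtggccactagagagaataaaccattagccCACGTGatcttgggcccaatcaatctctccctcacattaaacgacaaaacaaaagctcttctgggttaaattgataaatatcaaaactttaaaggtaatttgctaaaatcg

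Over 17298 promoters, from 250 bases before to 50 after the start and on both strands, CGCG was present in 13.9% of all, in 20.2% of those of rising genes and in 12.5% of those of falling genes. The share was 22.6% among 749 genes that rose at least 2-fold and 25.0% among 204 that rose at least 4-fold. The G-box went the other way, with 8.85% of all promoters, 12.7% of those of falling genes, 13.2% of 560 that fell at least 2-fold, 21.0% of 62 that fell at least 4-fold and 5.74% of those that rose at least 2-fold. ACGTGG, the core of the ABA-responsive element and able to overlap a G-box, was in 11.0% of all, 16.8% of at least 2-fold falling, 11.3% of 62 at least 4-fold falling and 8.01% of at least 2-fold rising promoters. A W-box core (TTGACC or TTGACT), bound by WRKY factors, was in 32.0% of all and in 38.6% of at least 2-fold rising promoters. The evening element AAAATATCT, known from clock genes, was in 2.85% of all, 3.60% of at least 2-fold rising and 5.36% of at least 2-fold falling promoters. Of 14 motifs searched, the others included the GCC box GCCGCC, the DRE core CCGAC, the telo box AAACCCTAA and the TATA box TATAAA. The rest were the hexamers CATGTG and GGTCCC, the NAC-type core CGTGTA and the auxin response element TGTCTC. Shares among all, at least 2-fold rising and at least 2-fold falling promoters were 12.7, 16.2 and 17.7% for CATGTG, higher in both directions. The GCC box (2.68, 1.47 and 1.61%), telo box (3.17, 2.4 and 1.25%) and DRE core (16.7, 14.4 and 15.5%) were lower in both. GGTCCC stood at 3.83, 4.27 and 6.07%, the NAC-type core at 8.04, 7.74 and 10.4%, and TGTCTC at 13.4, 14.6 and 13.4%. These shares are descriptions with no test, and a match is not a site.

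**Figure D1:**
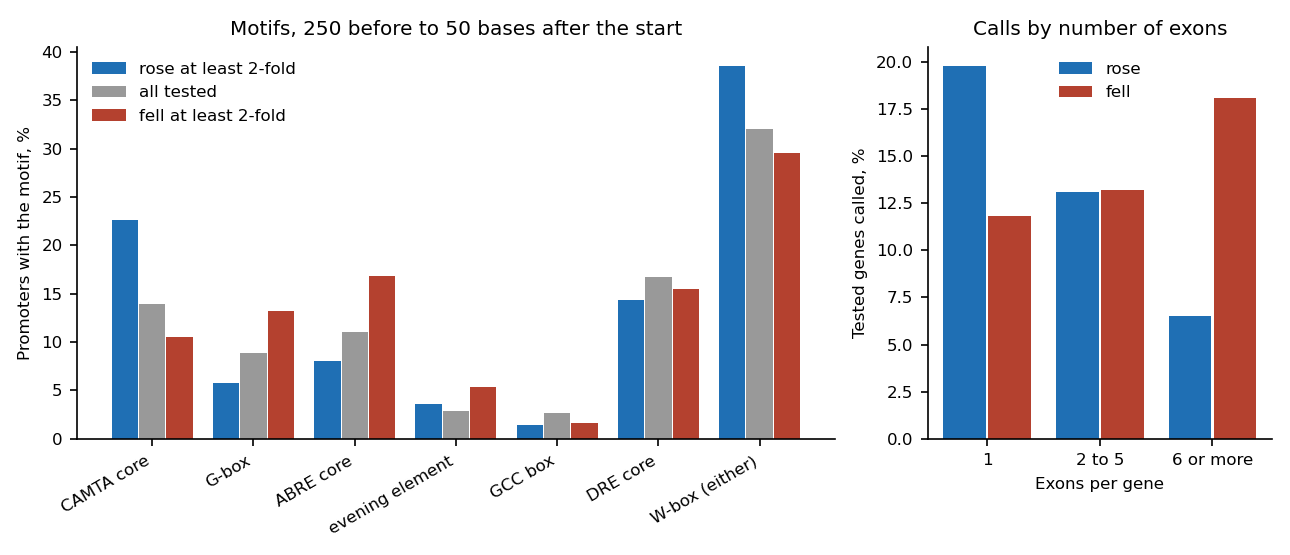
Left, share of promoters (%) with each of 7 short elements among genes that rose at least 2-fold, all tested genes and genes that fell at least 2-fold. Right, share of tested genes called (%) by number of exons. The CAMTA core stands at 22.6, 13.9 and 10.5% from left to right and the G-box at 5.74, 8.85 and 13.2%, while calls of a rise go from 19.8% of 1-exon genes to 6.51% of genes with 6 or more exons.

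Gene structure differed between the directions. Genes with 1 exon made up 16.2% of those tested, 28.0% of the rising genes and 35.6% of those that rose at least 2-fold. The median number of exons was 5 over tested genes, 3 over rising genes and 6 over falling genes. Of 2795 genes with 1 exon 19.8% rose and 11.8% fell, whereas of 7309 genes with 6 or more exons 6.51% rose and 18.1% fell. Median log2 fold changes were -0.09, -0.18 and -0.28 for 1, 2 to 5 and 6 or more exons as deposited, and 0.09, 0.03 and -0.07 after scaling. The at least 2-fold falling genes also had few exons, with a median of 3.

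The 12 largest rises and 12 largest falls were taken from called genes whose groups did not overlap, so their separation follows from that choice. AT1G72416, a protein with a DnaJ domain (the part of co-chaperones that stimulates Hsp70), stood at 1.81, 1.27, 0.59 and 1.26 TPM at moderate humidity and at 231, 43.5, 73.2 and 77.1 TPM at high humidity. High replicate 1 was the highest of its group, and the log2 fold change was 5.33 ± 0.39 (SE, adjusted p = 2.2e-06). AT4G16563, an aspartyl protease, stood at 2.15, 2.15, 3.03 and 2.95 TPM and then at 113, 121, 138 and 89.8 TPM. This was the tightest of the very large rises, with a log2 fold change of 5.02 ± 0.14 (adjusted p = 5.6e-10). PUP18, a member of the purine permease family, which carries purines and related compounds across membranes, went from 3.94, 14.1, 4.07 and 4.88 TPM to 268.2, 123.0, 153.4 and 153.4 TPM. Moderate replicate 2 was the highest of its group and high replicate 1 of the other (log2 fold change 4.61 ± 0.45, adjusted p = 2.5e-05).

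Other genes of this group also started from low levels. AT2G30930, which the reference does not name by function, averaged 4.69 ± 0.797 TPM at moderate and 139 ± 21.3 TPM at high humidity (log2 fold change 4.62 ± 0.15). AT2G16660, a major facilitator transporter, averaged 6.17 ± 4.58 and 99.2 ± 29.0 TPM, and AT1G50040, a protein with a domain of unknown function, 1.12 ± 1.33 and 30.6 ± 7.79 TPM. XT1, a xylosyltransferase that builds xyloglucan, reached the same list although wall families were set apart, since its description did not match their terms (3.59 ± 0.566 to 75.9 ± 11.3 TPM). A pair of near-identical genes for ribosomal protein S5, AT1G58684 and AT1G59359, carried the same value in every library. Both were listed at 0 in all 4 moderate libraries, at 39.8, 11.4, 10.6 and 42.5 TPM in the high ones, and at 0, 86.3, 36.8 and 43.7 TPM in the low ones. The zeros may be failed estimates of reads shared by the copies, so their change is uncertain.

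The largest falls included a peptide hormone, a growth regulator and enzymes of protective compounds. RGF9, a member of the root meristem growth factor peptide family, stood at 360, 402, 423 and 831 TPM at moderate humidity and at 36.2, 82.0, 62.9 and 61.1 TPM at high humidity. It was by far the most abundant of the 12 largest falls, moderate replicate 4 stood above the other 3, and the log2 fold change was -3.01 ± 0.29 (adjusted p = 1.6e-05). PRE1, a small bHLH protein that promotes cell elongation, stood at 23.6, 21.2, 26.3 and 41.2 TPM and then at 0.67, 3.37, 3.51 and 2.26 TPM. Moderate replicate 4 was again the highest and high replicate 1 the lowest (log2 fold change -3.13 ± 0.29, adjusted p = 1.7e-05). GolS2, a galactinol synthase of raffinose synthesis that responds to drought, averaged 46.7 ± 29.2 and 3.26 ± 1.81 TPM (log2 fold change -3.38 ± 0.53, adjusted p = 8.2e-04).

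CYP71B26, a cytochrome P450, went from 67.0, 70.2, 104 and 95.9 TPM to 5.58, 14.7, 10.5 and 8.56 TPM (log2 fold change -3.02 ± 0.25, adjusted p = 3.9e-06). WSD1, a wax ester synthase that links cuticular wax alcohols to fatty acids, averaged 11.51 ± 4.76 and 0.858 ± 0.499 TPM. PUB19, whose G-boxes are shown above, averaged 11.1 ± 7.63 and 0.450 ± 0.158 TPM, and DIP2 12.7 ± 7.17 and 0.470 ± 0.828 TPM. Their adjusted p were 1.5e-05, 0.0024 and 0.0011. The rest of the 12 were AT1G20070 and ASG8, of no named function, the hydrolase AT1G73480 (99.7 ± 38.6 to 10.3 ± 2.92 TPM), the factor ERF53, and AT5G01255. The last, a non-coding RNA, was listed at 0 in all 4 high libraries and at 4.23, 2.31, 15.97 and 27.3 TPM in the moderate ones, and its call was lost without moderate replicate 3, moderate replicate 4 or high replicate 1 (adjusted p = 0.061, 0.064 and 0.055). AT1G20070 averaged 43.3 ± 13.3 and 2.98 ± 1.42 TPM and ASG8 68.6 ± 13.9 and 9.69 ± 4.02 TPM.

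**Figure D2:**
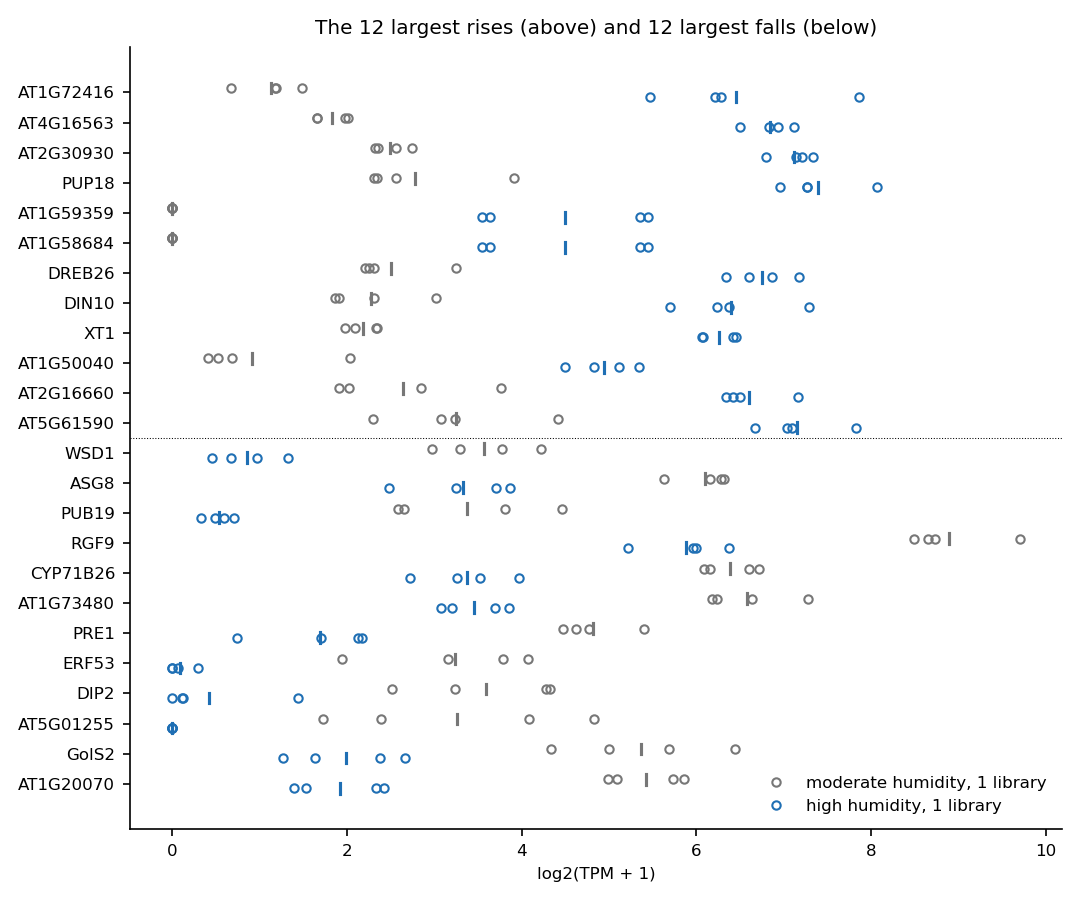
Values of the 12 largest rises (above the dotted line) and the 12 largest falls (below it) as log2(TPM + 1), 1 open circle per library and a bar for the mean of 4, at moderate (grey) and high (blue) humidity. The rows were chosen for groups that do not overlap, and the means differ by 2.71 (WSD1) to 5.33 (AT1G72416).

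Transcription factors changed in both directions. Of 625 tested members of the listed families 97 rose (15.5%) and 132 fell (21.1%), against 11.4 and 15.0% of all tested genes. AP2/ERF factors, a plant family of stress and ethylene regulators, had 18 rising and 11 falling members among 66, and 12 and 8 of these changed at least 2-fold. DREB26 went from 3.78, 8.50, 3.62 and 3.94 TPM to 143, 80.2, 115 and 96.5 TPM, with moderate replicate 2 above the rest of its group (log2 fold change 4.24 ± 0.25, adjusted p = 1.3e-07). TEM1, a repressor of flowering, went from 4.42 ± 1.48 to 45.9 ± 16.6 TPM and AT5G61590 from 10.0 ± 7.12 to 148 ± 53.9 TPM. ERF53, a factor of the drought response, fell from 15.8, 7.89, 12.8 and 2.86 TPM to 0.23, 0.05, 0 and 0 TPM (adjusted p = 3.8e-04).

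MYB, NAC and auxin response factors leaned to lower values. Of 48 tested MYB factors 6 rose and 16 fell, and 10 fell without moderate replicate 4 or without high replicate 1. MYB70, a repressor-type MYB, went from 3.21, 6.92, 2.32 and 2.87 TPM to 42.9, 45.6, 46.1 and 33.4 TPM, while MYB34, which activates indole glucosinolate synthesis, fell from 39.0 ± 9.08 to 8.38 ± 0.774 TPM. Both differences exceeded the spread between libraries (adjusted p = 6.1e-07 and 7.5e-04). MYB43 and MYB102 fell as well, by 1.59 and 1.41 on the log2 scale. Of 47 NAC factors 3 rose and 11 fell. NAP, a regulator of leaf senescence, went from 31.8, 66.4, 33.2 and 31.7 TPM to 5.58, 9.17, 3.91 and 5.96 TPM, with moderate replicate 2 highest (log2 fold change -2.52 ± 0.34, adjusted p = 1.8e-04). NAC089 and NAC13, both membrane-bound NAC factors, fell from 14.9 ± 2.39 to 4.94 ± 1.08 TPM and from 22.7 ± 4.06 to 9.55 ± 2.09 TPM.

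Auxin response factors, which bind the promoters of auxin-regulated genes, had 0 rising and 6 falling members among 12. ARF11, ARF16 and ARF9 fell by 1.08, 0.78 and 0.68 on the log2 scale (adjusted p = 0.0021, 3.9e-04 and 0.0025). MADS factors had 0 rising and 6 falling of 22, B-box factors 3 and 7 of 27 (3 or 4 falling without moderate replicate 4, high replicate 1 or high replicate 4), and HD-Zip factors 4 and 9 of 30. Examples were BBX29, which fell from 21.8 ± 6.30 to 4.98 ± 2.04 TPM, and HB-12, an ABA-responsive HD-Zip factor, which fell from 115 ± 22.7 to 22.9 ± 1.84 TPM. In the opposite direction BBX14 rose from 53.6 ± 21.9 to 113 ± 27.3 TPM, and PHV, an HD-Zip factor of the upper leaf side, from 9.25 ± 0.526 to 26.2 ± 2.04 TPM.

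TCP factors, which set growth and cell division in leaves, leaned upward. Of 18 tested, 7 rose and 1 fell, with a median log2 fold change of 0.25 as deposited and 0.47 after scaling, against -0.22 and -0.02 over all tested genes. CHE, a TCP factor that binds the CCA1 promoter, went from 5.08, 7.74, 4.43 and 4.49 TPM to 28.5, 21.3, 15.6 and 18.1 TPM. TCP8 and TCP9 rose from 7.38 ± 0.777 to 19.0 ± 2.92 TPM and from 5.52 ± 1.85 to 21.7 ± 3.18 TPM. In CHE, TCP8 and TCP9 every high library lay above every moderate one, as in 10.9% of all tested genes. TCP2, of the subgroup that limits leaf growth, fell by 0.82 on the log2 scale, a call lost without moderate replicate 3, moderate replicate 4, high replicate 1 or high replicate 4 (adjusted p = 0.095, 0.098, 0.10 and 0.088).

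bZIP factors had 12 rising and 7 falling members among 45, and 4 falling without high replicate 1. BZIP61 went from 0.53, 2.10, 0.72 and 0.87 TPM to 26.96, 25.2, 27.7 and 22.0 TPM, and BZIP34, its close relative, from 4.03 ± 1.07 to 14.8 ± 2.83 TPM (adjusted p = 2.4e-08 and 2.4e-05). WRKY factors, regulators of defence, had 9 rising and 6 falling members among 39, but 3 rising without high replicate 1 and 4 rising without moderate replicate 3 or 4. WRKY18 stood at 52.9, 10.4, 14.9 and 12.2 TPM at moderate and at 307, 40.2, 87.4 and 136 TPM at high humidity. Its groups overlapped, because moderate replicate 1 lay above high replicate 2, and its call (log2 fold change 2.55 ± 0.78, adjusted p = 0.023) was lost without moderate replicate 2, 3 or 4 or high replicate 1 or 4 (adjusted p = 0.053 to 0.064).

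Single members stood out in other families. ZAT7, whose promoter is shown above, went from 1.16, 3.77, 1.04 and 0.42 TPM to 40.9, 9.48, 10.5 and 27.2 TPM (log2 fold change 3.06 ± 0.52, adjusted p = 0.0011). The high libraries spread widely. BME3, a GATA factor of seed germination, rose from 19.5 ± 1.94 to 94.2 ± 15.6 TPM, and the bHLH factor AT2G31730 from 13.3 ± 1.25 to 67.9 ± 3.43 TPM. Heat shock factors went both ways, with HSFA3 rising from 0.455 ± 0.095 to 3.64 ± 1.04 TPM and HSFC1 falling from 28.2 ± 13.1 to 3.50 ± 0.342 TPM, while the other 14 of 16 tested were not called.

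Clock genes that peak in the morning were lower at high humidity. Of 10 listed, all tested, 0 rose and 7 fell. RVE1, a morning factor that links the clock to auxin, stood at 51.7, 50.9, 49.0 and 63.3 TPM at moderate and at 17.7, 24.6, 21.7 and 17.6 TPM at high humidity. Every high library lay below every moderate one, as in 34.9% of all tested genes, with a log2 fold change of -1.36 ± 0.13 (adjusted p = 1.1e-05). RVE6, PRR9, LNK1 and PRR7 fell by 1.05, 0.95, 0.76 and 0.59 on the log2 scale (adjusted p = 0.0012, 0.003, 0.001 and 0.0054). CCA1, with LHY the central morning repressor of the clock, fell from 356 ± 31.2 to 241 ± 26.95 TPM, and RVE8, which activates evening genes, from 97.7 ± 10.4 to 66.2 ± 5.96 TPM. Both calls were lost without moderate replicate 3, moderate replicate 4, high replicate 1 or high replicate 4, with adjusted p of 0.067 to 0.077 for CCA1 and 0.060 to 0.075 for RVE8. LHY averaged 348 ± 29.4 and 280 ± 25.5 TPM and passed the test as deposited (adjusted p = 0.027) but not after scaling (adjusted p = 0.53).

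Day and evening clock genes were mostly low in these libraries, and 6 of 12 were tested. CHE and TOC1 rose and GI fell. GI went from 12.4, 6.81, 13.3 and 12.98 TPM to 4.30, 6.40, 6.70 and 4.80 TPM, with moderate replicate 2 close to the high range. TOC1 went from 2.41 ± 0.375 to 3.78 ± 1.04 TPM. Both calls depended on single libraries, since GI lost its call without moderate replicate 1, 3 or 4 or high replicate 1 or 4 (adjusted p = 0.071 to 0.084), and TOC1 without any library other than moderate replicate 2 and high replicate 2 (adjusted p = 0.055 to 0.13).

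In light signalling, 1 of 16 tested genes rose and 5 fell, with 3 falling without moderate replicate 3 or high replicate 1. PHYB, the main red light receptor of green leaves, stood at 44.9, 35.4, 40.5 and 34.4 TPM and then at 16.8, 17.8, 18.5 and 19.3 TPM, and at 45.0 TPM on average at low humidity. The high libraries were close together and below all others (log2 fold change -1.05 ± 0.13, adjusted p = 0.0014). In 34.9% of all tested genes every high library lay below every moderate one. PIF3, a bHLH partner of phytochromes, fell by 0.82, and SPA1 and COP1, which form the ligase that removes light regulators in the dark, by 0.71 and 0.51 on the log2 scale. The COP1 call was lost without moderate replicate 3 or 4 or high replicate 1 or 4 (adjusted p = 0.073 to 0.082). It was also lost with the 8 high and moderate libraries alone. PIF5, a growth-promoting partner of phytochromes, was called higher by 0.29 ± 0.10 (adjusted p = 0.03), a call lost without moderate replicate 1, high replicate 1 or high replicate 3 (adjusted p = 0.066 to 0.093). PIF4 and HY5 had log2 fold changes of 0.16 ± 0.17 and -0.28 ± 0.19 and overlapping groups.

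**Figure D3:**
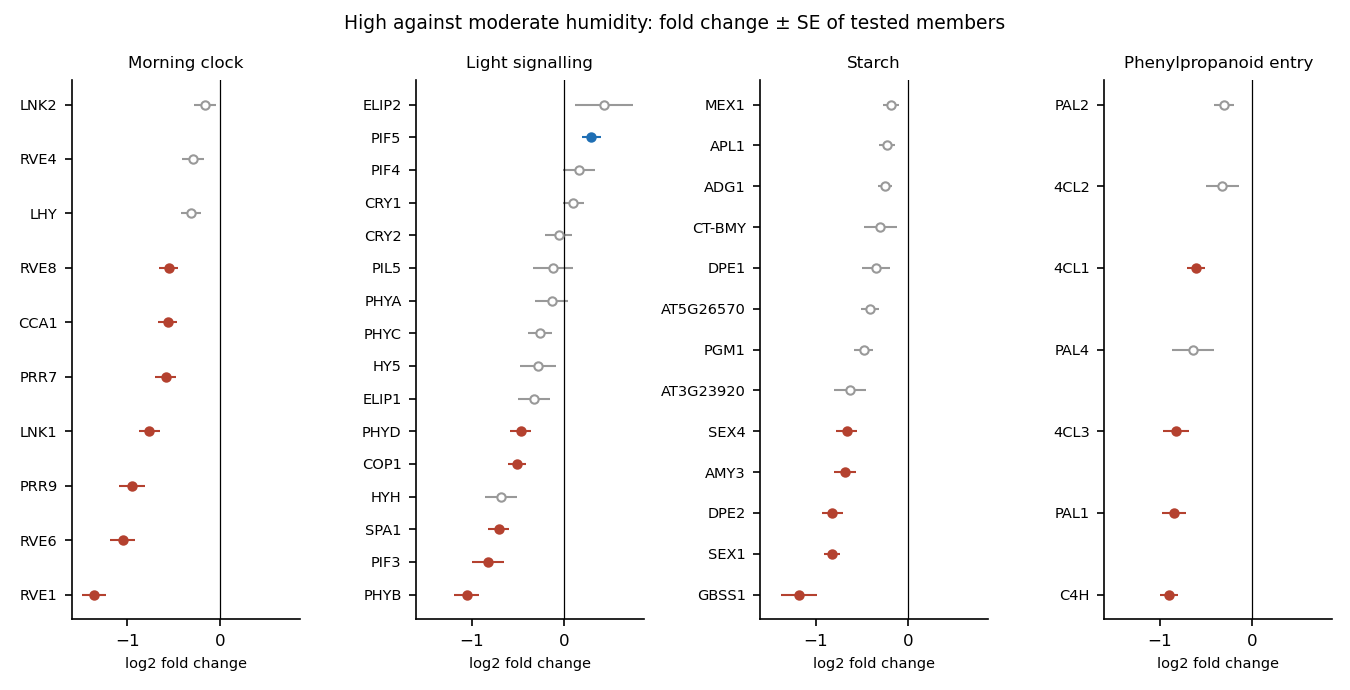
Log2 fold change of high against moderate humidity with its SE for each tested member of 4 pathway lists. Filled points passed the test (red lower, blue higher) and open points did not. All 10 morning clock, 13 starch and 7 phenylpropanoid genes have points left of 0 as deposited, of which 7, 5 and 4 passed. The median tested gene also lay left of 0 as deposited (-0.22, and -0.02 after scaling).

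Most hormone lists had calls in both directions, but called type A ARR genes (response regulators) all fell. Among 8 tested, 0 rose and 6 fell (75.0%, against 15.0% of all tested genes), 4 of them at least 2-fold. The list had a median of -1.05 on the log2 scale with unscaled TPM and -0.81 with scaled TPM. With 1 library left out at a time, 5 or 6 of them fell. GASA1, a small cysteine-rich protein induced by gibberellin, stood at 315, 262, 253 and 238 TPM at moderate and at 1759, 1827, 1575 and 1503 TPM at high humidity. It was among the most abundant transcripts to rise, and the low humidity mean was 447 TPM (log2 fold change 2.64 ± 0.16, adjusted p = 1.3e-07). Of 22 tested gibberellin genes 5 rose and 5 fell. GAI, a DELLA repressor of gibberellin signalling, rose from 9.76 ± 1.24 to 25.5 ± 2.57 TPM, and ATGA2OX1, an enzyme that inactivates gibberellin, fell from 3.30 ± 0.541 to 0.253 ± 0.119 TPM. Both changes exceeded the spread (adjusted p = 1.8e-06 and 3.6e-05).

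Of 12 tested brassinosteroid genes 4 rose and 2 fell. The receptor gene BRI1 went from 21.7, 24.8, 29.3 and 27.4 TPM to 58.5, 54.03, 58.7 and 50.2 TPM, and the low humidity mean was 17.5 TPM. Every high library lay above every moderate one, as in 10.9% of all tested genes (log2 fold change 1.08 ± 0.10, adjusted p = 4.6e-06). BZR1, the factor that acts at the end of the pathway, and the synthesis genes DWF1 and DWF4 rose by 0.45, 0.59 and 0.41 on the log2 scale. ROT3, a P450 of brassinosteroid synthesis, fell by 1.08. The other falling gene, BAS1, which inactivates the hormone, stood at 2.54, 4.21, 2.47 and 6.95 TPM and then at 1.04, 1.86, 1.51 and 1.54 TPM, and lost its call (adjusted p = 0.034) without moderate replicate 2 or 4 or high replicate 1, 3 or 4 (adjusted p = 0.061 to 0.093). CKX7, the cytosolic enzyme that degrades cytokinin, went from 17.7, 17.1, 20.1 and 19.8 TPM to 72.1, 57.2, 64.1 and 60.5 TPM (log2 fold change 1.71 ± 0.13, adjusted p = 4.5e-06), and was the only called member of 4 tested cytokinin oxidases.

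Auxin genes went both ways. Of 22 Aux/IAA repressors 4 rose and 7 fell, with 4 falling without moderate replicate 3 or without high replicate 4. IAA19 and IAA7 rose from 4.08 ± 0.822 to 9.80 ± 1.03 TPM and from 77.8 ± 6.51 to 126 ± 11.47 TPM, while IAA1 and IAA5 fell from 51.7 ± 7.89 to 19.2 ± 2.16 TPM and from 5.61 ± 1.64 to 1.19 ± 0.375 TPM. SAUR genes, small auxin-induced growth proteins, had 7 rising members, all at least 2-fold, and 11 falling members among 44, but 6 falling without any of moderate replicates 3 and 4 and high replicates 1 and 3. AT1G72430 rose from 145 ± 22.4 to 457 ± 46.2 TPM and AT4G22620 fell from 5.63 ± 3.36 to 0.148 ± 0.257 TPM. Among carriers, the efflux carrier PIN7 fell from 23.3 ± 4.84 to 10.9 ± 1.601 TPM, the uptake carrier LAX1 rose from 23.3 ± 2.26 to 40.1 ± 3.35 TPM, and AT2G17500, of the PILS group, rose from 8.26 ± 2.32 to 24.6 ± 2.31 TPM.

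ACS11, an enzyme of the first committed step of ethylene synthesis, stood at 0, 0.24, 0 and 0.04 TPM at moderate and at 6.80, 3.14, 2.94 and 6.01 TPM at high humidity (adjusted p = 3.4e-06). It was near 0 at moderate and low humidity and above 2 TPM in every high library. ACS11 thus passed the filter only through its high libraries, so its presence in all of them follows from that choice. ACO4, of the last step of that pathway, rose from 71.9 ± 9.48 to 99.5 ± 13.7 TPM, and of 13 tested ethylene genes 2 rose and 1 fell. The falling gene, EIN2, a central transducer of the ethylene signal, averaged 8.61 ± 1.40 and 3.96 ± 1.33 TPM, and its call (adjusted p = 0.042) was lost without any library other than high replicate 3 (adjusted p = 0.058 to 0.11). Jasmonate synthesis genes had wide spreads at moderate and at low humidity. LOX2, a plastid lipoxygenase, stood at 715, 253, 465 and 290 TPM and then at 186, 129, 164 and 162 TPM, and AOS, the next enzyme, at 390, 126, 262 and 200 TPM and then at 111, 88.7, 90.0 and 96.3 TPM. Every high library lay below every moderate one, as in 34.9% of all tested genes, and neither passed the test (adjusted p = 0.19 and 0.20). Both passed with the 8 high and moderate libraries alone (adjusted p = 0.034 and 0.044), and the low group, which enters the estimate of the spread, ranged from 176 to 1321 TPM for LOX2 and from 100.2 to 669 TPM for AOS. AOC4 fell from 26.6 ± 2.91 to 14.1 ± 1.37 TPM and was the only called gene of 14, although the median log2 fold change of the list was -1.17 as deposited and -0.94 after scaling.

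Salicylic acid and pattern-triggered immunity genes were mostly not called, as were 12783 of all 17368 tested genes. With median-of-ratios scaling alone 5 members of each list rose, where 18.5% of all tested genes did. Of 16 tested salicylic acid genes 1 rose, NPR3 (9.74 ± 4.18 to 20.8 ± 4.43 TPM), a receptor of the hormone. ICS1, its synthesis enzyme, averaged 11.1 ± 3.54 and 8.06 ± 1.32 TPM and PR5, a marker of the response, 44.2 ± 12.2 and 44.4 ± 9.97 TPM, with overlapping groups. The log2 fold change of PR5 was 0.02 ± 0.20 (SE). Of 16 tested pattern-triggered immunity genes RBOH F, a producer of reactive oxygen, rose by 0.45 ± 0.12 (adjusted p = 0.0093) and none fell.

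Receptor and calcium signalling genes changed in both directions. Of 100 NLR genes, the intracellular immune receptors, 18 rose and 6 fell, with 8 and 1 at least 2-fold, and 10 fell without moderate replicate 1. AT3G04210 went from 40.0, 84.0, 27.6 and 52.3 TPM to 236, 203, 177 and 192 TPM (log2 fold change 2.07 ± 0.38, adjusted p = 0.0017), AT5G22690 from 3.50 ± 0.592 to 16.1 ± 2.55 TPM and AT1G61100 from 26.3 ± 6.74 to 86.8 ± 11.2 TPM. Of the falling members AT5G43740 went from 13.6 ± 2.99 to 5.78 ± 1.01 TPM. Reads of such clustered gene families can be shared between copies, so single values are less certain. CRK40, a cysteine-rich receptor kinase, rose from 62.6 ± 7.12 to 126 ± 7.86 TPM and WAK2, a wall-associated kinase, from 32.4 ± 13.1 to 78.1 ± 15.9 TPM.

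Calcium-dependent protein kinases had 9 rising and 3 falling members among 26, and 9 rose in each set with 1 library left out. CPK1 went from 33.1, 26.1, 23.5 and 24.8 TPM to 86.2, 50.6, 63.8 and 63.1 TPM (log2 fold change 1.25 ± 0.17, adjusted p = 8.8e-05). CPK5, which activates the oxidative burst, rose from 43.2 ± 5.69 to 86.8 ± 10.12 TPM and CPK30 from 4.11 ± 0.295 to 7.85 ± 0.754 TPM, while CDPK19 fell from 39.3 ± 3.57 to 22.0 ± 1.64 TPM. The CIPK and CBL group, kinases and sensors of another branch of calcium signalling, had 2 rising and 10 falling members among 26, and 6 falling without high replicate 4. CIPK1 fell from 131, 102, 147 and 157 TPM to 19.96, 31.7, 29.0 and 28.0 TPM, whereas CIPK15 rose from 27.7, 48.1, 34.2 and 33.5 TPM to 171, 154, 170 and 164 TPM. In both the groups did not overlap, as in 45.8% of all tested genes (log2 fold changes -2.26 ± 0.15 and 2.19 ± 0.18). CIPK5 and CIPK7 fell by 1.85 and 1.08.

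MEKK1, which starts a MAP kinase cascade of immunity and abiotic stress, rose from 12.7 ± 0.879 to 27.5 ± 3.38 TPM (adjusted p = 2.8e-05). MAPKKK18, an ABA-induced kinase of the same class, fell from 4.74, 0.76, 1.97 and 1.49 TPM to 0.32, 0.15, 0 and 0.30 TPM (adjusted p = 0.012). U-box ubiquitin ligases had 8 rising and 3 falling members among 30. SAUL1, a U-box ligase that delays senescence, rose from 11.04 ± 3.10 to 34.1 ± 8.12 TPM, opposite to PUB19.

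Genes of secretion and of the cytoskeleton had more rising than falling members. Exocyst and SNARE genes had 20 rising and 5 falling members among 90 (22.2 and 5.56%), and 3 falling without high replicate 3 or 4. EXO70B2 stood at 6.11, 8.59, 4.72 and 6.92 TPM at moderate and at 50.2, 27.9, 22.7 and 28.0 TPM at high humidity (log2 fold change 2.09 ± 0.30, adjusted p = 2.6e-04). EXO70B1 and SEC15B rose from 14.95 ± 2.51 to 36.0 ± 4.44 TPM and from 11.3 ± 0.754 to 24.6 ± 4.19 TPM. In all 3 exocyst genes the high libraries lay above the moderate ones, as in 10.9% of all tested genes. Small G proteins had 19 rising and 7 falling members among 72. RAB8C, a Rab GTPase of secretion, went from 62.2, 73.1, 65.5 and 54.8 TPM to 322, 224, 283 and 241 TPM, RABA1c from 5.38 ± 2.19 to 26.6 ± 10.95 TPM and RABA1g from 8.24 ± 0.878 to 22.9 ± 4.03 TPM, while SGP2 fell from 5.71 ± 1.01 to 1.96 ± 0.303 TPM.

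PATL1 and PATL2 belong to the patellins, lipid-binding proteins of the growing cell plate and plasma membrane. PATL2 stood at 17.2, 10.3, 15.4 and 15.8 TPM at moderate and at 190, 180, 218 and 171 TPM at high humidity, and PATL1 at 60.2, 79.9, 64.9 and 59.2 TPM and then at 372, 358, 391 and 291 TPM. Their log2 fold changes were 3.62 ± 0.15 and 2.40 ± 0.12 (adjusted p = 1.0e-08 and 2.2e-08). The wider Sec14 family went the other way, so that of 30 tested members 4 rose and 13 fell. Actin and its partners had 15 rising and 6 falling members among 59, with 3 falling without high replicate 1, 2 or 3. ACT11 rose from 21.7 ± 2.45 to 79.8 ± 7.72 TPM, and AFH1, a formin that nucleates actin filaments, from 25.97 ± 2.004 to 67.2 ± 6.05 TPM. Of 39 tubulins and kinesins 9 rose and 5 fell (3 fell without moderate replicate 3 or 4 or high replicate 1, 2 or 4), and TUA3, TUA5 and TUB7 rose by 1.56, 1.40 and 1.30 on the log2 scale. TUA3 and TUA5 encode near-identical tubulins, so the split of their reads is uncertain.

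**Figure D4:**
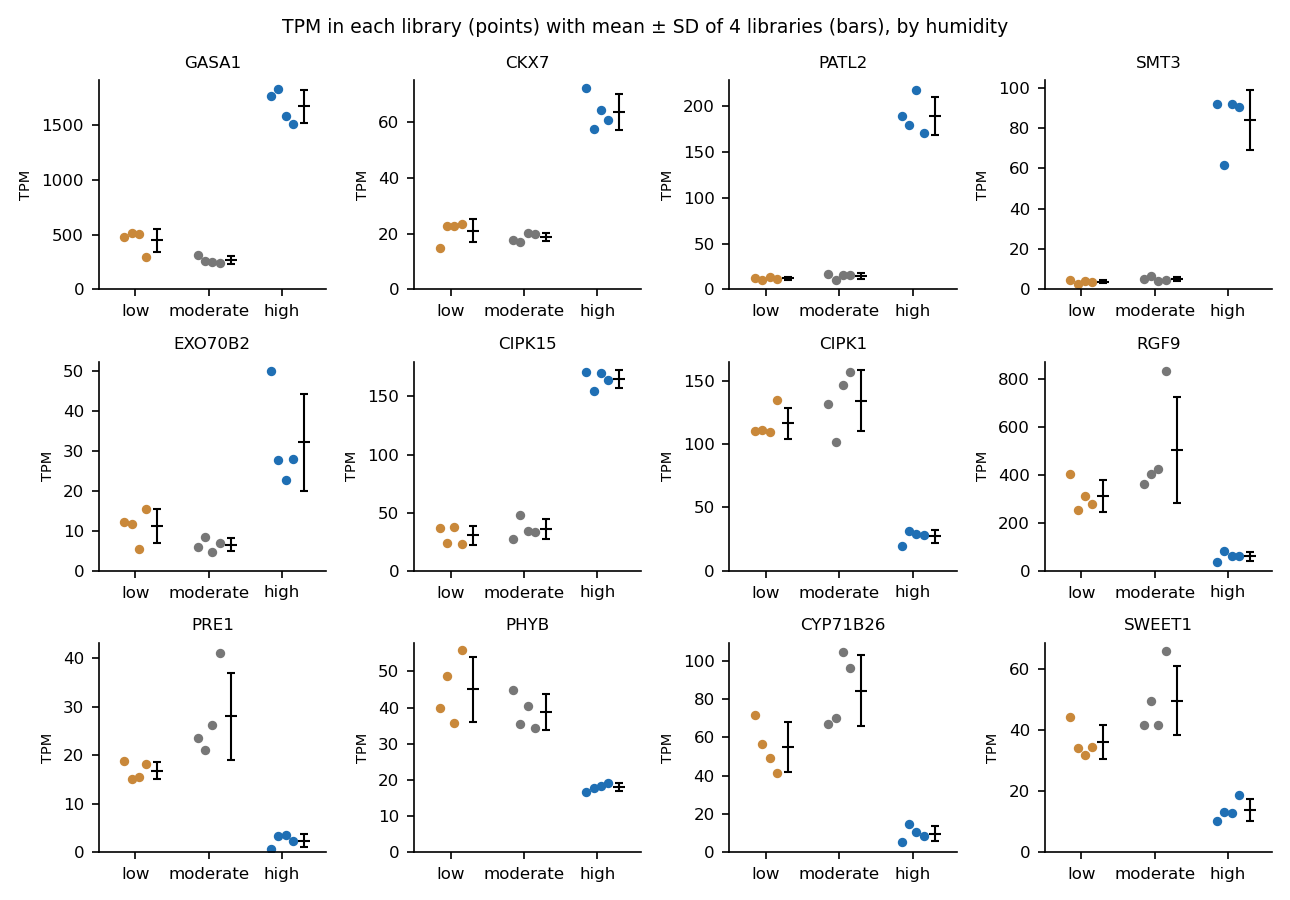
TPM of 12 named genes in each of the 12 libraries (points) at low, moderate and high humidity, with the mean and SD of each group of 4 beside them. All 12 genes were called, and the 4 high points lie apart from the 4 moderate ones, as they do in 45.8% of all tested genes; examples are GASA1 (1503 to 1827 against 238 to 315 TPM) and PHYB (16.8 to 19.3 against 34.4 to 44.9 TPM).

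In carbon metabolism the called starch genes were lower and most called sugar starvation genes were higher. Of 13 tested starch genes 0 rose, 5 fell (38.5%, against 15.0% of all tested genes) and 8 were not called. GBSS1, the granule-bound enzyme that makes amylose, stood at 840, 558, 991 and 956 TPM and then at 283, 456, 429 and 298 TPM (log2 fold change -1.18 ± 0.19, adjusted p = 0.006). SEX1, DPE2, AMY3 and SEX4, all of starch breakdown, fell by 0.82, 0.82, 0.68 and 0.67 on the log2 scale. ADG1, the small subunit of the enzyme that feeds starch synthesis, passed the test only as deposited (-0.25 ± 0.07, adjusted p = 0.014, against 0.88 after scaling).

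Of 9 tested sugar starvation genes 4 rose (44.4%, against 11.4% of all tested genes), 1 fell and 4 were not called. DIN10, a raffinose synthase-like gene induced in darkness, stood at 2.63, 7.13, 2.77 and 3.96 TPM at moderate and at 155, 50.7, 74.4 and 81.6 TPM at high humidity (log2 fold change 4.12 ± 0.34, adjusted p = 4.4e-06). PRODH1, which degrades proline in mitochondria, went from 3.97, 3.13, 3.50 and 4.03 TPM to 51.95, 21.9, 31.2 and 35.9 TPM (adjusted p = 7.7e-07). In both genes high replicate 1 was the highest. AKINBETA1, a subunit of the energy-sensing SnRK1 kinase, rose from 3.06 ± 3.67 to 14.5 ± 5.09 TPM, and TPS8, a trehalose phosphate synthase-like protein, was called higher although moderate replicate 2 lay above high replicate 2 (37.0 ± 16.0 to 69.0 ± 11.9 TPM, adjusted p = 0.015). MCCA, of leucine breakdown, fell by 0.82 on the log2 scale.

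Sugar carriers had 5 rising and 3 falling members among 19. STP1, a hexose uptake carrier, went from 9.54, 13.5, 8.80 and 11.7 TPM to 86.4, 32.8, 37.0 and 41.5 TPM, and the sucrose carriers SUC1 and SUC2 from 34.2 ± 3.05 to 76.3 ± 21.4 TPM and from 125 ± 9.87 to 164 ± 11.9 TPM. SWEET1, a glucose facilitator, fell from 41.7, 49.6, 41.6 and 65.8 TPM to 10.4, 13.3, 12.9 and 18.8 TPM (log2 fold change -1.77 ± 0.18, adjusted p = 1.9e-05).

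GDSL lipases, a large family of lipid-hydrolysing enzymes, had 8 rising and 13 falling members among 40, with 7 of the falls at least 2-fold. Ketoacyl-CoA synthases, which extend fatty acids for waxes and sphingolipids, had 7 rising and 1 falling member among 14, the largest share of rising members in the plot of calls by family. KCS9 went from 64.5, 76.9, 69.6 and 91.6 TPM to 169, 188, 187 and 159 TPM (log2 fold change 1.21 ± 0.14, adjusted p = 2.8e-05), KCS5 and KCS8 rose from 3.97 ± 0.613 to 9.56 ± 1.67 TPM and from 0.735 ± 0.494 to 4.68 ± 0.377 TPM, and KCS2, of suberin and wax synthesis, fell from 32.9 ± 12.2 to 8.07 ± 1.69 TPM. Lipid transfer proteins, small secreted proteins of the epidermis, had 9 rising and 1 falling member among 30. The whole list went from 0.432% ± 0.029 of TPM to 0.904% ± 0.032, and at low humidity it held 0.492% ± 0.051. AT2G45180 stood at 820, 857, 924 and 978 TPM and then at 3019, 2835, 3179 and 2959 TPM, and AT2G10940 at 1266, 1353, 1557 and 1508 TPM and then at 3869, 3810, 4302 and 4181 TPM. These 2 genes alone carried most of the gain, LTP5 rose from 162 ± 12.1 to 322 ± 39.1 TPM, and AT1G55260 fell from 138 ± 19.3 to 72.5 ± 16.0 TPM.

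Sterol synthesis had 6 rising and 4 falling members among 25. SMT3, a methyltransferase that adds the side chain carbon of sitosterol, stood at 5.03, 6.46, 4.39 and 4.52 TPM at moderate and at 92.1, 61.8, 92.2 and 90.5 TPM at high humidity (log2 fold change 3.80 ± 0.16, adjusted p = 4.2e-09). Its relatives SMT2 and SMT1 rose from 115 ± 2.23 to 288 ± 17.6 TPM and from 61.4 ± 5.44 to 144 ± 10.7 TPM, so all 3 methyltransferase genes were higher. SQS2, a squalene synthase-like gene at the start of the pathway, fell from 33.0 ± 2.96 to 15.2 ± 2.08 TPM. Aspartyl proteases had 14 rising and 0 falling members among 38. Besides AT4G16563, AT1G66180 rose from 34.1 ± 2.52 to 166 ± 30.5 TPM and AT3G59080 from 2.99 ± 1.12 to 19.3 ± 3.69 TPM. Of 16 class III peroxidases, secreted enzymes that act on the wall, 6 rose and 3 fell, and AT3G28200 went from 28.4 ± 1.90 to 200 ± 28.9 TPM and AT4G33420 from 3.39 ± 0.573 to 19.6 ± 3.48 TPM.

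**Figure D5:**
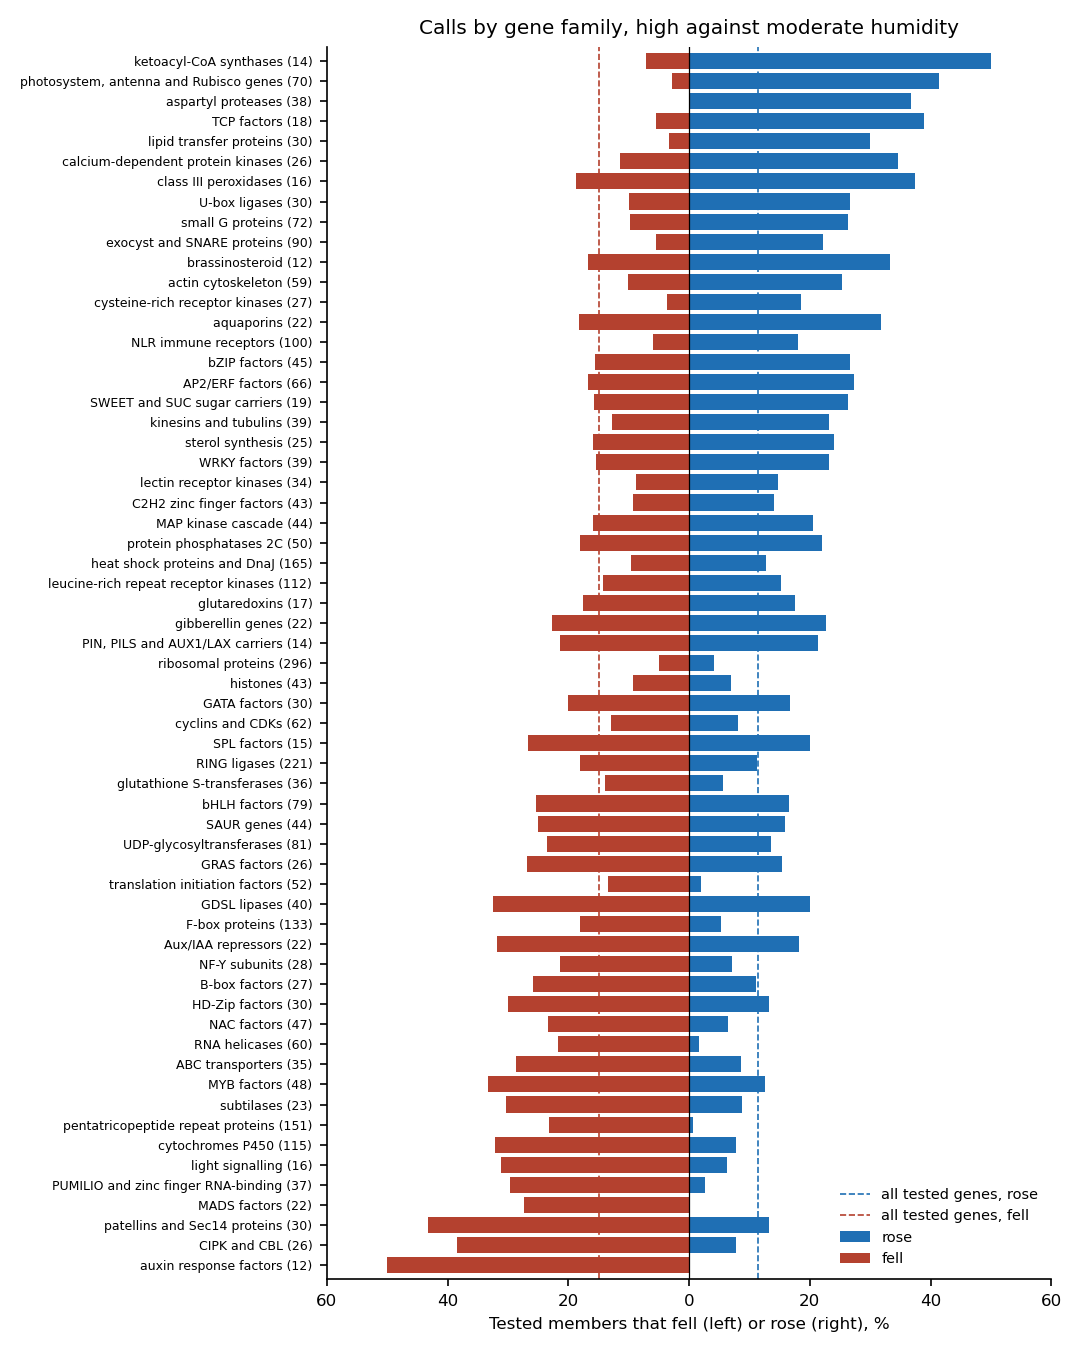
Share of tested members that rose (blue, right) or fell (red, left) at high against moderate humidity, for 61 families with at least 12 tested and 6 called members, ordered by the difference. Numbers of tested members are in parentheses and dashed lines give the shares over all tested genes, 11.4 and 15.0%. Ketoacyl-CoA synthases stand at the top with 7 of 14 rising, and auxin response factors at the bottom with 6 of 12 falling.

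Calls in secondary metabolism were mostly falls, as were 56.8% of all calls. Cytochromes P450, a large family of oxidising enzymes, had 9 rising and 37 falling members among 115 (7.83 and 32.2%), and 19 fell at least 2-fold. Besides CYP71B26, CYP96A1, of the clade that hydroxylates wax alkanes, fell from 9.66 ± 1.40 to 3.45 ± 0.783 TPM. Of 7 phenylpropanoid entry genes, all tested, 4 fell. C4H, the P450 of the second step, stood at 222, 185, 222 and 225 TPM and then at 96.3, 121, 111 and 128 TPM, and PAL1, of the first step, at 201, 207, 175 and 230 TPM and then at 92.1, 110, 110 and 139 TPM. Their log2 fold changes were -0.90 ± 0.10 and -0.85 ± 0.13 (adjusted p = 8.9e-04 and 0.0061). The ligase genes 4CL1 and 4CL3 fell by 0.61 and 0.83, and both calls were lost without moderate replicate 4 or high replicate 1 (adjusted p = 0.052 to 0.089), which left 2 called members, while 4CL1 was also lost without moderate replicate 3 or high replicate 4 (adjusted p = 0.081 and 0.066).

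In the flavonoid branch 2 of 8 tested genes fell (25.0%, against 15.0% of all tested genes), and 4 without moderate replicate 2. AT3G55120, chalcone isomerase, went from 52.1, 36.8, 53.5 and 65.8 TPM to 13.8, 20.2, 14.7 and 14.9 TPM, and FLS1, flavonol synthase, from 52.1 ± 12.2 to 23.4 ± 7.18 TPM. CHS, which opens the branch, averaged 302 ± 48.3 and 263 ± 41.2 TPM with overlapping groups. Of 20 tested glucosinolate genes 0 rose and 4 fell, namely MYB34, MYB29, MYB76 and SOT18. That share of falls, 20.0%, was near the 15.0% of all tested genes. The regulators MYB29 and MYB76 fell by 0.90 and 0.87 on the log2 scale and the sulfotransferase SOT18 by 0.94, a call lost without high replicate 4 (adjusted p = 0.052). UDP-glycosyltransferases, which attach sugars to hormones and secondary compounds, had 11 rising and 19 falling members among 81. UGT85A1 and UGT85A2, neighbouring genes of 1 clade, rose from 6.75 ± 1.87 to 47.8 ± 11.9 TPM and from 8.76 ± 0.949 to 33.6 ± 6.43 TPM, whereas UGT76E11 fell from 35.0 ± 3.39 to 9.18 ± 2.54 TPM and AT4G09500 from 5.80 ± 1.43 to 0.665 ± 0.224 TPM.

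Nutrient genes changed moderately. APR1 and APR3, reductases of sulfate assimilation, fell from 206 ± 36.6 to 86.4 ± 14.5 TPM and from 109 ± 10.08 to 55.4 ± 8.26 TPM (adjusted p = 5.8e-04 and 3.0e-04), and of 10 tested sulfur genes 3 rose and 2 fell, with 0 rising without moderate replicate 2, moderate replicate 3 or high replicate 2 and 1 without high replicate 1 or 3. Of 9 tested phosphate starvation genes 1 rose and 4 fell. PAP17, a purple acid phosphatase, stood at 7.25, 4.47, 5.48 and 5.90 TPM and then at 1.08, 1.74, 1.72 and 1.06 TPM, PPsPase1, SPX1 and SPX2 fell by 1.16, 0.80 and 0.65, and MGD2, of galactolipid synthesis, rose from 5.49 ± 0.762 to 19.0 ± 2.22 TPM. Among 14 nitrate genes the transporter NRT1.1 rose by 0.50 ± 0.14 and 4 fell, ASN2, asparagine synthetase, by 1.10 and UPM1, of sirohaem synthesis, by 0.91. Of 15 iron genes 1 was called, the reductase FRO3, which rose from 4.65 ± 0.864 to 9.16 ± 1.88 TPM.

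Plastid-encoded genes had 5 rising, 3 of them at least 2-fold, and 0 falling members among 54. The share that rose, 9.26%, was near the 11.4% of all tested genes, of which 15.0% fell. Their share of TPM was 0.185% ± 0.017 in moderate libraries and 0.300% ± 0.030 in high ones, near the 0.305% ± 0.058 of the low group. Of 70 tested photosystem, antenna and Rubisco genes 29 rose and 2 fell, none by 2-fold, and 0 or 1 fell without moderate replicate 4 or high replicate 1 or 2. PSAE-1, a subunit of photosystem I, stood at 2688, 2837, 3004 and 3068 TPM at moderate and at 5620, 5288, 4454 and 4664 TPM at high humidity, and at 5392 TPM on average at low humidity. PSBTN and PSAH-1 rose by 0.78 and 0.60 on the log2 scale, and their low humidity means, 4387 and 1226 TPM, likewise lay above the moderate ones of 2285 and 822 TPM. Pentatricopeptide repeat proteins, which process organelle RNA, had 1 rising and 35 falling members among 151 (0.662 and 23.2%), and 23 falling without moderate replicate 4 or without high replicate 1. AT2G30100 fell from 102 ± 16.4 to 29.9 ± 2.56 TPM and DYW1, of plastid RNA editing, from 61.6 ± 11.3 to 28.9 ± 3.90 TPM.

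Ribosomal protein genes had 12 rising and 15 falling members among 296 (4.05 and 5.07%), and 7 to 9 fell without moderate replicate 2 or 4 or high replicate 1, 2 or 3, and their part of TPM was 3.72% ± 0.329 and 3.38% ± 0.336. Of 36 proteasome subunits 1 was called, AT5G57950, which fell by 0.72 on the log2 scale. RNA helicases had 1 rising and 13 falling of 60, and translation initiation factors 1 and 7 of 52, with 4 falling without high replicate 1. EIF3A fell from 54.5 ± 6.55 to 35.3 ± 3.16 TPM. In the unfolded protein response BZIP60, a transcription factor whose RNA is spliced in that response, rose by 0.56 ± 0.12. Of the other 12 tested genes UNE5, a protein disulfide isomerase-like protein, was called lower at an adjusted p of 0.050, and that call was lost without any library other than moderate replicate 4 (adjusted p = 0.055 to 0.13). Long non-coding RNAs had 46 rising and 47 falling members among 504 (9.13 and 9.33%), both below the 11.4 and 15.0% of all tested genes.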

How the data were processed

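Leaf mRNA from 12 libraries (4 at each of 3 humidities) was sequenced as paired reads. The authors deposited TPM values per gene in a table whose title speaks of raw counts, but each library sums to 998920 to 999399, so the values were treated as TPM, read depth is unknown and no counting interval is given. Fastp, HISAT2 and RSEM with TAIR10 are named per the submitters' processing notes, with no versions. Replicates were the labels' biological replicates, and no pair of libraries was identical.

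Genes with at least 1 TPM in at least 4 of 12 libraries were tested with limma 3.58.1 (R 4.3.3) on values transformed as log2(TPM + 1), with 3 group means, an intensity trend and robust moderation, and Benjamini-Hochberg adjustment over all 17368 genes. The fit was made on unscaled TPM and again on TPM scaled by median-of-ratios factors, since TPM are shares of a whole, and a call needed an adjusted p under 0.05 and the same sign in both. The fit was tested on simulated data. Families were matched by symbol, description or locus code. Members and lists were chosen with earlier results of these data known. Named genes were the 12 largest non-overlapping rises and falls outside wall, touch and ABA families with a mean log2(TPM + 1) of at least 1, the leading called members of each family (largest rise, largest fall and up to 2 with the smallest adjusted p), and members of pathway lists, of which the text names 193. Of the table's genes 32548 matched TAIR10.1 by locus, and 22 names that had been turned into dates were replaced from it. Alternatives were other pseudocounts, filters, scalings, moderation and library sets, and a replicate block.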

Additional observations from a re-analysis of the deposited data

Results flagged for a closer look

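Single libraries stood apart from the other 3 of their humidity (a gap above Dixon's critical share of the group's range) in 26 of 383 groups of named-gene values (6.79%), where chance gives about 1 in 20. Of these, 12 lay in moderate replicate 2. There DREB26 (8.50 TPM), AT1G50040 (3.10 TPM), PUP18 (14.11 TPM), BBX14 (86.22 TPM), NAP (66.43 TPM), ICS1 (16.38 TPM), ACS11 (0.24 TPM) and EXO70B1 (18.7 TPM) stood above the rest of the moderate group. In the same library GI (6.81 TPM), AT2G30100 (77.95 TPM), C4H (184.6 TPM) and BBX29 (12.34 TPM) stood below it. ICS1 was not called with or without that library, and the other 11 genes were called both ways.

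In high replicate 1, STP1 (86.44 TPM), AT2G16660 (142.36 TPM), AT4G22620 (0.53 TPM) and DIP2 (1.71 TPM) stood above the other high libraries. In high replicate 2, SEX4 (14.59 TPM), AT3G55120 (20.21 TPM) and MYB29 (34.53 TPM) stood above and SMT3 (61.76 TPM) below. DWF4 (11.28 TPM) was set apart above in high replicate 3 and SGP2 (1.51 TPM) below in high replicate 4. In the other moderate libraries these were WRKY18 in replicate 1 (52.9 TPM, above), ROT3 in replicate 3 (4.97 TPM, above), RGF9 in replicate 4 (831.34 TPM, above) and MYB29 in replicate 4 (47.41 TPM, below).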

How the results depend on the processing

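With TPM as deposited alone 5938 genes were lower, and with median-of-ratios scaling alone 3213 were higher, against 2604 and 1981 under both. Leaving out 1 library at a time gave 1658 to 1906 higher and 1906 to 2434 lower genes, the lowest of both without high replicate 1. The other settings gave 1714 to 2249 higher and 2273 to 2646 lower genes. Of 184 named genes that were called, 169 kept the call under every setting run, 15 lost it under at least 1 and 0 changed direction, and the cause was not tested. Of 193 named genes all were run under 16 of the 18 settings, 182 passed the filter of 5 TPM and 190 remained without photosynthetic genes. LHY and ADG1 passed only as deposited, and LOX2 and AOS only with the 8 high and moderate libraries alone. With those 8 libraries alone COP1, TCP2 and UNE5 lost their calls. Under a replicate block RVE8, BAS1, EIN2 and UNE5 lost theirs. Of 89 family counts of at least 5, 99 of 1602 values over all settings moved by over 1.5 times, 42 of them under 1 scaling alone. A replicate block gave 1900 higher and 2273 lower genes. Deviations of same-numbered libraries correlated at 0.241, -0.07, 0.225 and -0.039, not all above 0.1, and 4 of 8 libraries were closest to their own number among 4, so the numbers were not taken as pairs. Depth is unknown, so the precision of low TPM values rests on the 4 libraries of a group.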
